A study of Mus musculus with 22 samples.

Results

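The 9 RNAs described here are long non-coding transcripts of 3 kinds, chosen by name and not by a threshold on their values: nuclear RNAs (Malat1, Neat1 and Kcnq1ot1), the host of a microRNA cluster (Dleu2), and hosts of small nucleolar RNAs (Gas5, Snhg1, Snhg5, Snhg8 and Snhg12). They are 9 of the 49671 genes in the deposited count table, and all 9 were among the 11905 genes with enough counts to test. RNA sequencing had been done on TH2 cells, the T helper cells of type 2 immunity, polarised in culture from wild-type Balb/c mice of both sexes bred on diets of 400, 1000 or 4000 IU vitamin D3 per kg. The hormone calcitriol, made from vitamin D in the body, was added at 100 nM to 11 cultures for the final 24 hours, and 11 vehicle cultures received 2% ethanol instead. RNA was taken on day 5 in both groups. The labels tie no library to an animal, sex or diet, and they do not say how much ethanol the calcitriol cultures held. Nothing states that libraries came from separate mice, so the spread behind each p-value is that of libraries and may be technical in part.

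Malat1 and Neat1 stay in the nucleus, where Malat1 collects in nuclear speckles, the stores of splicing factors, and Neat1 is the scaffold on which paraspeckles assemble. Kcnq1ot1 is transcribed antisense to Kcnq1 from the paternal chromosome and silences imprinted genes around it. Small nucleolar RNAs (snoRNAs) guide the chemical modification of ribosomal RNA and are cut from the introns of host genes. The spliced exons of many hosts carry little coding sequence and are cleared by nonsense-mediated decay when ribosomes engage them. Dleu2 carries miR-15a and miR-16-1, microRNAs known for restraining cell division and survival in lymphocytes.

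The start sites of the snoRNA hosts are shown because these 5 genes share a sequence feature there that the choice of genes did not use. Each line runs from 35 bases before the RefSeq start through the first 25 transcribed bases (GRCm38.p6), with capitals for TATA lying 20 to 35 bases before the start and for a run of at least 6 pyrimidines (C or T) whose first C lies within 5 bases of the start. Malat1 is added for comparison.
Gas5, downstream of 2 starts, chr1:161035131-161035190, plus strand: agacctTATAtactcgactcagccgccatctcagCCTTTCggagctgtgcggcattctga
Snhg1, chr19:8723452-8723511, plus strand: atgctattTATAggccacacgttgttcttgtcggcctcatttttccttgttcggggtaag
Snhg5, chr9:88522873-88522932, minus strand: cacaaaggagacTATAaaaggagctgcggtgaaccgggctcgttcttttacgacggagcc
Snhg8, chr3:123508312-123508371, minus strand: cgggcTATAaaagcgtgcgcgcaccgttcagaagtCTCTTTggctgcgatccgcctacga
Snhg12, chr4:132308643-132308702, plus strand: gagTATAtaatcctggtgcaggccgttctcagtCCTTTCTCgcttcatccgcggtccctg
Malat1, chr19:5802648-5802707, minus strand: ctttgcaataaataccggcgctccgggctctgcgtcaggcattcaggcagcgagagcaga
All 5 snoRNA hosts held TATA in that window on the transcribed strand, whereas 5.08% of 32851 RefSeq mouse promoters did. The pyrimidine run was found at Gas5, Snhg8 and Snhg12, and at 10.2% of all promoters. Neither was found at Malat1, Kcnq1ot1, Dleu2 or the upstream start of Gas5. TATA was looked for after the windows had been seen, and a match of letters describes the window without showing a bound factor. A pair of vitamin D receptor-type elements (each of them AGGTCA, or else GGTTCA, or else GGGTCA, or else AGTTCA, with 3 bases between, on either strand) occurred in none of the 8 members' 300-base promoters, against 13 promoters in all (0.0396%). CACGTG, the letters of an E-box, read on both strands, occurred in the Dleu2 promoter alone among the members and in 7.15% of all promoters.

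The microRNAs inside Dleu2 are printed because they share a seed, bases 2 to 8, given in capitals.
mmu-miR-15a-5p, chr14:61632075-61632096, minus strand: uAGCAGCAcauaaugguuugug
mmu-miR-16-5p, chr14:61631936-61631957, minus strand: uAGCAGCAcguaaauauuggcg

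Library totals ran from 3214171 to 20258430 counts. T cell markers summed to between 1843 and 2269 CPM (counts scaled to a common library total) in vehicle and 1858 to 2283 in calcitriol. Within these sums 2 of 6 T cell markers tested rose and 1 fell (50% called, beside 31.5% of all genes). Cd3d rose from 333 to 423 CPM (log2 0.35 ± 0.05, adjusted p = 7.49e-06) and Cd3e rose by 0.20 ± 0.07 (adjusted p = 0.0353). Cd4 fell from 755 to 690 CPM (-0.13 ± 0.04, adjusted p = 0.01535). TH2 markers summed to 583 to 982 and 544 to 933, although Il1rl1, a receptor on TH2 cells, averaged only 0.765 CPM in vehicle. Of 6 TH2 markers tested 1 fell and 0 rose (16.7%, beside 31.5% of all genes). It was Il13, which went from 333.5 to 203.0 CPM (log2 -0.72 ± 0.23, adjusted p = 0.0204). Summed B cell markers reached at most 7.16 CPM, dendritic markers 6.73, myeloid markers 2.08, mast cell and basophil markers 0.961 and erythroid markers 0.165, with Hba-a1 and Alas2 at 0 counts throughout. Zbtb46, the only dendritic marker tested, fell from 4.68 to 2.59 CPM (log2 -0.90 ± 0.16, adjusted p = 5.56e-05). TH1 and cytotoxic markers summed to 17.4 to 39.2 CPM in vehicle and 35.4 to 180 in calcitriol. Within that list Gzma, a granule protease, rose (8.81 to 77.8 CPM, log2 3.06 ± 0.41, adjusted p = 6.24e-06), while Tbx21, the TH1 regulator, fell (8.12 to 3.39 CPM, log2 -1.26 ± 0.11, adjusted p = 1.29e-09). The part of any of these cell types in the results was not tested. Cyp24a1, the enzyme that degrades calcitriol and its classic target, had 0 counts over the vehicle libraries and 2381 over the calcitriol libraries. The libraries, numbered within each group in accession order only, fell into a pair of sets on some members: numbers 1 to 4 of both groups (8 libraries) and numbers 5 to 11 (14 libraries). The labels name no batch that matches this, and values within each set are given beside the members it touches. For the changes of neighbours, listed genes and markers no values within the sets are given. The split was made after the data had been seen, so fits within a set or with the set as a covariate are description only.

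Of the 9 RNAs, 2 passed the threshold of adjusted p under 0.05 in edgeR's quasi-likelihood test over all genes: Malat1 was higher and Snhg5 was lower with calcitriol. That is 22.2% of the members, beside 31.5% of all genes tested (16.1% higher, 15.5% lower), so calls were no more frequent among them than in the background. Estimates were above 0 for 5 members and below 0 for 4, all 4 of them snoRNA hosts. No member had groups that did not overlap, as did 4.36% of genes (2.77% with calcitriol above, 1.59% below). In bulk RNA, fewer cells of a type and less RNA per cell cannot be told apart.

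**Figure D1:**
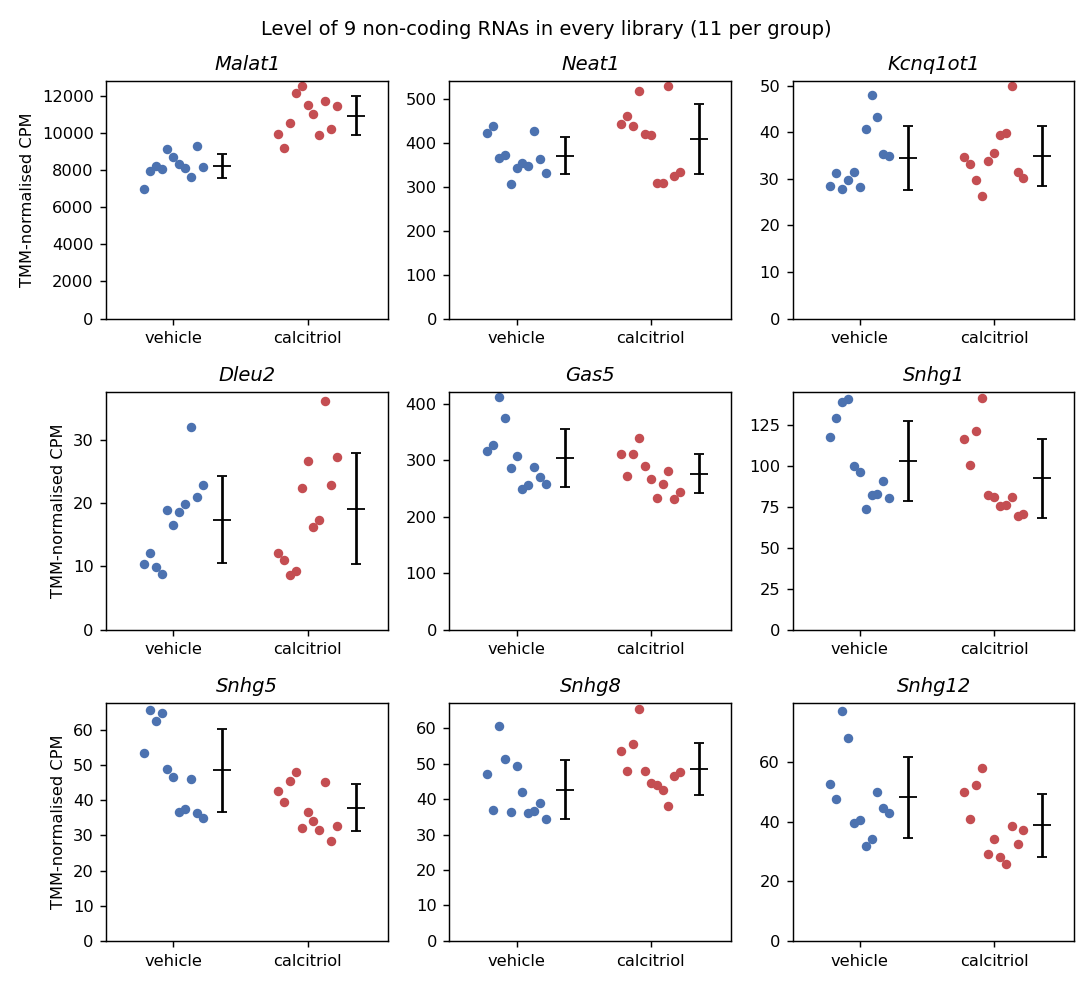
TMM-normalised CPM of each RNA in the 11 vehicle (blue) and 11 calcitriol (red) libraries, in library order, each vertical axis starting at 0; the black marks are mean and SD. Malat1 is the member with the least overlap between groups, with 10 calcitriol libraries above every vehicle library.

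Malat1 (ENSMUSG00000092341, chr19:5795690-5802672, minus strand) is a single-exon RNA of 6983 bases and was the seventh most abundant gene of the vehicle libraries by CPM. Its CPM ran from 6999 through a median of 8150 to 9272 in vehicle and from 9162 through 11030 to 12510 in calcitriol. Of the calcitriol libraries, 10 of 11 lay above every vehicle library; the exception, calcitriol 2 at 9162 CPM, was also the shallowest library. Malat1 rose 1.33-fold, a log2 change of 0.41 ± 0.05 (SE, n = 11 and 11; 95% interval 0.30 to 0.51; adjusted p = 6.83e-07, edgeR).

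Each library held between 28443 and 192182 Malat1 counts. As a share of all counts, with no scaling factor, it went from 0.841% ± 0.068 to 1.06% ± 0.11 (SD, n = 11; two-sided permutation test, adjusted p = 0.00014 over 7 library measures). The rise had the same size within libraries 1 to 4 (0.42 ± 0.08, adjusted p = 0.000965) and within libraries 5 to 11 (0.40 ± 0.05, adjusted p = 2.16e-06). Mitochondrial genes held 2.32% ± 0.44 of counts in vehicle and 2.28% ± 0.39 in calcitriol (permutation test, adjusted p = 0.926). Genes other than Malat1 annotated as lincRNA, antisense, processed transcript or similar types held 2.45% ± 0.18 and 2.39% ± 0.32 (adjusted p = 0.834). No difference was detected in either share. Non-coding genes of other annotated types are not in the second share. The list of other long non-coding RNAs below summed to 33160 to 39440 CPM in vehicle and 36380 to 47480 in calcitriol, so part of it lies outside that share. Gm37376, annotated on the opposite strand inside Malat1, had 23 and 34 counts per group. Whether counting used strand is not given in the sources used here, but its counts are few beside those of Malat1.

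Neat1 (ENSMUSG00000092274, chr19:5824708-5845478, minus strand) lies 22036 bases from Malat1 and spans 20771 bases in its long form. It measured 306, 362 and 439 CPM (lowest, median, highest) in vehicle and 308, 420 and 529 in calcitriol. The calcitriol group reached higher, with 4 libraries above every vehicle library, but its lowest libraries sat at the vehicle minimum. The log2 change was 0.14 ± 0.09 (95% interval -0.05 to 0.33; adjusted p = 0.256). The 4 calcitriol libraries numbered 1 to 4 all lay between 437 and 517 CPM, whereas numbers 5 to 11 spread from 308 to 529. Within libraries 1 to 4 the log2 change was 0.22 ± 0.08 (adjusted p = 0.0681) and within 5 to 11 it was 0.10 ± 0.12 (adjusted p = 0.589), neither past the threshold.

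Kcnq1ot1 (ENSMUSG00000101609, chr7:143203458-143296549, minus strand) is an unspliced RNA of 93092 bases. Its CPM was 27.8, 31.5 and 47.9 (lowest, median, highest) in vehicle and 26.4, 33.9 and 49.8 in calcitriol, so the groups covered the same range. The log2 change was 0.02 ± 0.10 with a 95% interval of -0.20 to 0.24 (adjusted p = 0.911), and the sign changed with the setting used. Kcnq1, the potassium channel gene on the other strand, had 0 and 2 counts per group. Of 12 genes of the imprinted domain, 5 were tested and 2 rose (40% called, beside 31.5% of all genes, and 1 with mutually most alike libraries summed): Cd81, a tetraspanin at the cell surface, from 270 to 330 CPM (log2 0.29 ± 0.05, adjusted p = 2.61e-05), and Nap1l4, a histone chaperone (0.18 ± 0.05, adjusted p = 0.00244). Tssc4 and Tspan32 had log2 changes of 0.15 and 0.14 (adjusted p = 0.0826 and 0.115). Kcnq1, Cdkn1c, Phlda2, Slc22a18, Ascl2, Trpm5 and Th had too few counts to test. The highest of them, Cdkn1c, averaged 0.806 CPM in vehicle and 1.01 in calcitriol. Whether Kcnq1ot1 acts on any gene of the domain in these cells was not tested.

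Dleu2 (ENSMUSG00000097589, chr14:61602839-61682373, minus strand) was the most variable member, with a coefficient of variation of 39.5% in vehicle and 45.9% in calcitriol. In vehicle libraries 1 to 11 its CPM was 10.4, 12.1, 9.96, 8.78, 18.95, 16.6, 18.7, 19.95, 31.98, 20.9 and 22.9. The calcitriol libraries in the same order measured 12.2, 10.95, 8.72, 9.27, 22.4, 26.6, 16.2, 17.4, 36.2, 22.9 and 27.2 CPM. Libraries 1 to 4 were low in both groups (8.72 to 12.2 CPM), libraries 5 to 11 were high in both (16.2 to 36.2), and the sets did not overlap. Between treatments the log2 change was 0.15 ± 0.25 (95% interval -0.37 to 0.67; adjusted p = 0.696), an interval too wide to exclude a change as large as that of Malat1. Leaving out 1 library moved the estimate from 0.01 (without calcitriol 9) to 0.28 (without vehicle 9), with no call. Since the sets were first seen in Dleu2, its change was not refitted within them.

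Inside Dleu2 the microRNA genes had almost no counts in these libraries, with 5 per group at Mir15a and 0 at Mir16-1. The mature microRNAs printed above were therefore not measured. Trim13, a ubiquitin ligase gene on the other strand that overlaps the end of Dleu2, measured 5.37 and 4.93 CPM (log2 -0.14 ± 0.16, adjusted p = 0.551). The remaining genes within Dleu2 that reached 10 counts in total, Kcnrg, Gm27017, Gm27010, Gm37472 and Gm37420, had between 6 and 84 counts per group and were not tested.

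**Figure D2:**
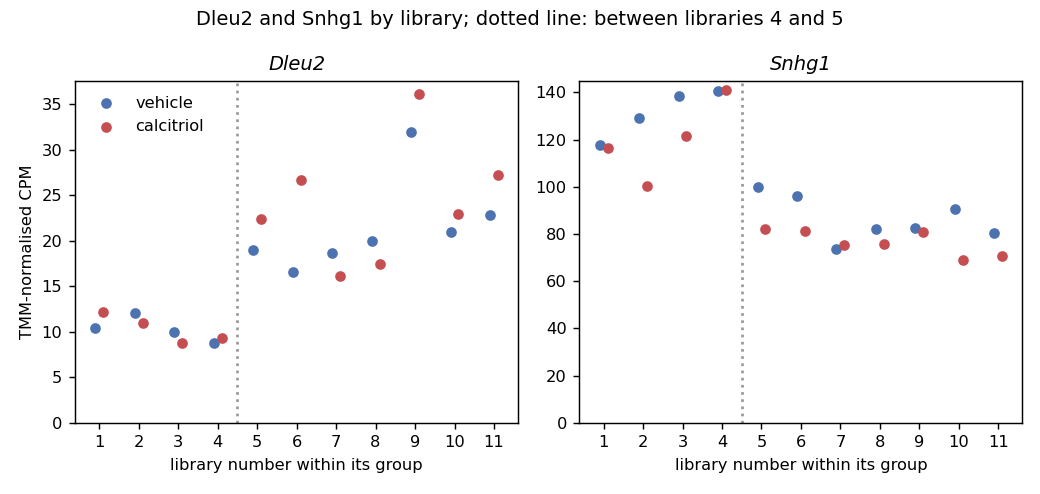
TMM-normalised CPM of Dleu2 (left) and Snhg1 (right) by library number within each group, vehicle in blue and calcitriol in red, with a dotted line between numbers 4 and 5. In both groups Dleu2 is low and Snhg1 high in libraries 1 to 4, with Dleu2 at 8.72 to 12.2 CPM there and 16.2 to 36.2 in the others.

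Snhg5 (ENSMUSG00000097195, chr9:88521050-88522929, minus strand), the host of Snord50a and Snord50b, fell with calcitriol. It measured 35.03, 46.5 and 65.7 CPM (lowest, median, highest) in vehicle and 28.3, 36.6 and 48.1 in calcitriol. Of the calcitriol libraries, 5 lay below every vehicle library and 10 of 11 lay below the vehicle median. The level fell to 0.781 of vehicle (log2 -0.36 ± 0.12, 95% interval -0.61 to -0.10, adjusted p = 0.0287). The call is close to the threshold and was lost without vehicle 2, 3 or 4 or calcitriol 8 or 10, with adjusted p between 0.0513 and 0.0566. It was also lost without a filter (adjusted p = 0.0722), without numbers 1 and 2 of each group (0.0955) and with mutually most alike libraries summed (0.171). Snhg5 was higher in libraries 1 to 4, without overlap in vehicle and with overlap in calcitriol; within those the log2 change was -0.48 ± 0.10 (adjusted p = 0.00207), within 5 to 11 it was -0.24 ± 0.10 (adjusted p = 0.0720), and with the set as a covariate -0.33 ± 0.08 (adjusted p = 0.000989).

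Snhg12 (ENSMUSG00000086290, chr4:132308623-132311024, plus strand), which carries Snora16a, Snora44, Snora61 and Snord99, measured 31.9, 44.8 and 77.3 CPM in vehicle and 26.0, 37.3 and 58.2 in calcitriol (lowest, median, highest). The groups overlapped over most of their range, with 3 calcitriol libraries below every vehicle library. The log2 change was -0.32 ± 0.16 (95% interval -0.65 to 0.01; adjusted p = 0.132). With the library set as a covariate, chosen after the data had been seen, it was -0.31 ± 0.09 and passed the threshold (adjusted p = 0.00652), as it did within libraries 5 to 11 (-0.33 ± 0.10, adjusted p = 0.0153). It did not pass within libraries 1 to 4 (-0.27 ± 0.14, adjusted p = 0.245) or with mutually most alike libraries summed (-0.32, adjusted p = 0.314).

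Gas5 (ENSMUSG00000053332, chr1:161034422-161038539, plus strand), the most abundant host here, was first known for accumulating in growth-arrested cells. Its CPM was 249, 289 and 412 (lowest, median, highest) in vehicle and 232, 272 and 341 in calcitriol, with 3 calcitriol libraries below every vehicle library. The log2 change of -0.14 ± 0.08 did not pass (95% interval -0.31 to 0.03; adjusted p = 0.222). It did with library size alone (-0.21, adjusted p = 0.0375) and with surrogate variables (-0.13, adjusted p = 0.0207), and leaving out 1 library gave -0.17 to -0.09, the latter without vehicle 3. In vehicle, libraries 1 to 4 measured 317 to 412 CPM and libraries 5 to 11 measured 249 to 308, without overlap. The log2 change was -0.21 ± 0.09 within libraries 1 to 4 (adjusted p = 0.129), -0.08 ± 0.06 within 5 to 11 (adjusted p = 0.322) and -0.13 ± 0.05 with the set as a covariate (adjusted p = 0.0576).

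Snhg1 (ENSMUSG00000108414, chr19:8723475-8726443, plus strand) measured 73.5, 96.2 and 141 CPM in vehicle and 69.2, 81.2 and 141 in calcitriol (lowest, median, highest). Libraries 1 to 4 of both groups measured 100.5 to 141 CPM and libraries 5 to 11 measured 69.2 to 99.8, so this RNA also separated the sets, in the opposite direction to Dleu2. The log2 change was -0.16 ± 0.14 (95% interval -0.45 to 0.13; adjusted p = 0.437). It was the same size but past the threshold with the set as a covariate, chosen after the data had been seen (-0.16 ± 0.06, adjusted p = 0.0280). Since Snhg1 itself separates the sets, the smaller SE of that fit is not independent support for a change. Within libraries 1 to 4 the log2 change was -0.12 ± 0.09 (adjusted p = 0.439) and within 5 to 11 -0.17 ± 0.06 (adjusted p = 0.0491).

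Snhg8 (ENSMUSG00000104960, chr3:123507552-123508404, minus strand), the host of Snora24, was the only snoRNA host of the 5 with an estimate above 0. It measured 34.4, 39.0 and 60.6 CPM (lowest, median, highest) in vehicle and 38.0, 47.7 and 65.5 in calcitriol. Of the calcitriol libraries, 10 of 11 lay above the vehicle median, though the ranges overlapped. The log2 change was 0.18 ± 0.10 (95% interval -0.02 to 0.38; adjusted p = 0.162). It passed the threshold without vehicle 3 (0.24, adjusted p = 0.0366) and with the set as a covariate (0.19 ± 0.07, adjusted p = 0.0414). It did not pass within libraries 1 to 4 (0.19 ± 0.13, adjusted p = 0.379), within 5 to 11 (0.19 ± 0.08, adjusted p = 0.0690) or with libraries summed (adjusted p = 0.380). The difference between Snhg8 and the other hosts was not tested.

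**Figure D3:**
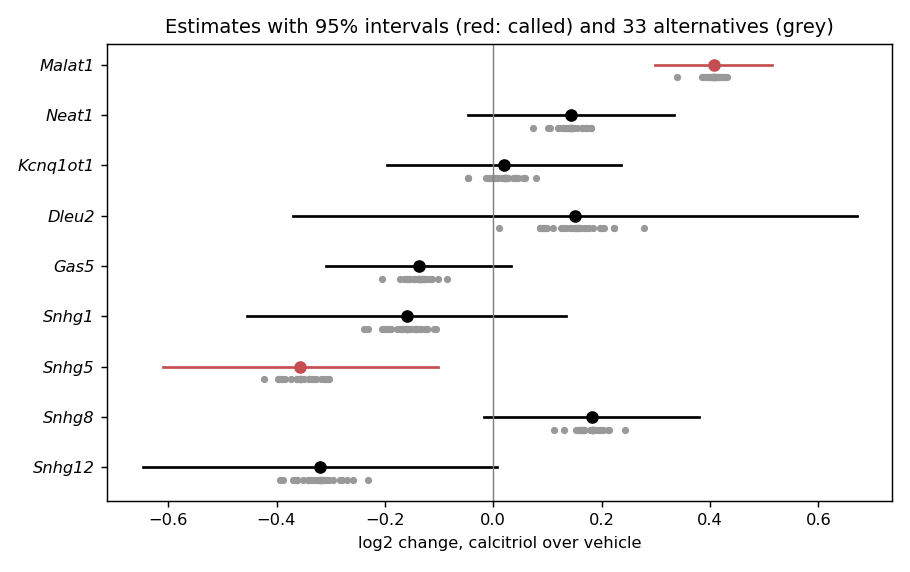
Log2 change of each RNA, calcitriol over vehicle, with its 95% interval (red for the 2 RNAs past the threshold, black for the rest); grey points are the estimates under 33 alternative settings. Malat1 stays well above 0 in every setting, Snhg5 stays below 0, and Kcnq1ot1 falls on both sides of 0.

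The snoRNA genes inside these hosts were not measured. GENCODE M21 places 10 snoRNA genes inside Gas5, 8 in Snhg1, 5 in Snhg12, 2 in Snhg5 and 1 in Snhg8, and every one lies fully within an annotated exon of some host transcript. Their counts were 0 except for 1 count at a Snora16a copy in Snhg12. A snoRNA gene outside the members did have counts. Snora73b, 41298 bases from Snhg12, averaged 607 CPM in vehicle and 702 in calcitriol (log2 0.21 ± 0.11, adjusted p = 0.162). How reads lying on both a host and a snoRNA gene were assigned is not given in the sources used here. The levels above are those counted for the host genes, and whether they include reads from snoRNA sequence is not known.

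Levels between genes were compared as CPM per kilobase of annotated exon. For Snhg1, Snhg8 and Snhg12 the exons of all transcripts together cover the whole gene (2969, 853 and 2402 bases). The divisor is then the gene length, which lowers their levels where spliced RNA is shorter. In vehicle, Malat1 stood far above the rest at 1179 ± 93 (SD, n = 11), followed by Gas5 at 81.0 ± 13.7, Snhg8 at 50.1 ± 9.8, Snhg1 at 34.7 ± 8.3, Snhg5 at 28.1 ± 6.8, Snhg12 at 20.1 ± 5.7, Neat1 at 17.8 ± 2.0, Dleu2 at 1.53 ± 0.61 and Kcnq1ot1 at 0.370 ± 0.073. The ranges of neighbours in this order overlapped from Gas5 down to Neat1. Within a library the order was steadier: Gas5 exceeded Snhg8, Snhg1 exceeded Snhg5 and Snhg5 exceeded Snhg12 in 11 of 11 vehicle libraries, while Snhg8 exceeded Snhg1 in 10 and Snhg12 exceeded Neat1 in 8. The ranges did not overlap between Malat1 and Gas5, Neat1 and Dleu2, or Dleu2 and Kcnq1ot1. Using the longest transcript instead of all exons raised Dleu2 to 4.24, Gas5 to 119, Snhg5 to 39.7 and Snhg12 to 31.4.

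Likeness between members is given as Pearson's r of log2 CPM with each group's mean removed, as a description. Over 22 libraries the 10 pairs of snoRNA hosts had r from 0.52 to 0.91, and Dleu2 had r from -0.84 to -0.61 with the hosts. These values rest largely on the sets. Among the 14 libraries numbered 5 to 11 the host pairs ran from -0.19 to 0.78 and Dleu2 with the hosts from -0.43 to 0.80. Gas5, Snhg1 and Snhg5 stayed alike there, at 0.78 for Gas5 with Snhg1, 0.69 for Gas5 with Snhg5 and 0.63 for Snhg1 with Snhg5. Snhg8 did not, at -0.19 to 0.13 with the other hosts. Dleu2 and Snhg12 had r = -0.61 over all libraries and 0.80 within the 14. Malat1 had r between -0.13 and 0.34 with the other 8 over all libraries and between -0.31 and 0.62 within the 14, where it was closest to Snhg1 (0.62) and Gas5 (0.46).

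**Figure D4:**
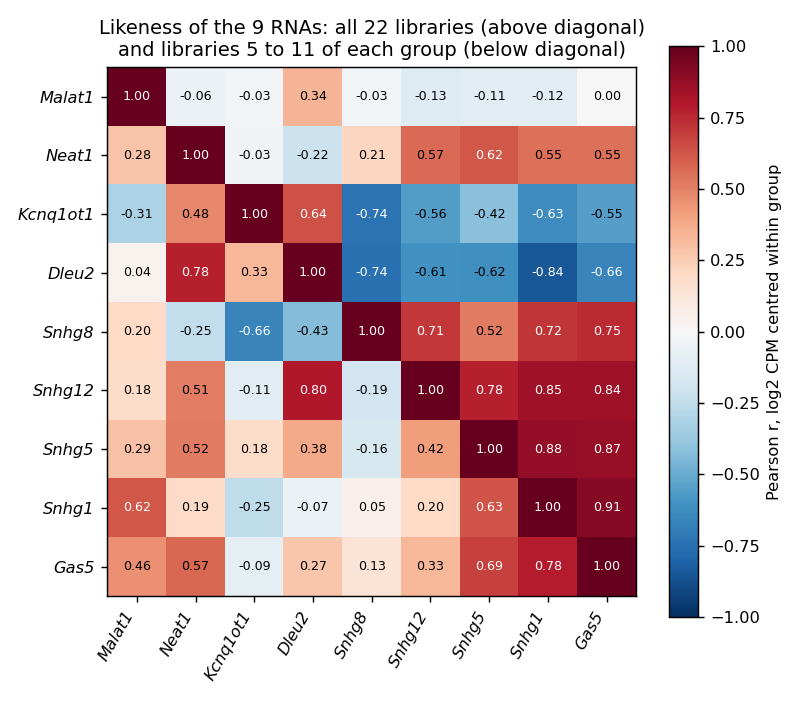
Pearson's r between members for log2 CPM with each group's mean removed: all 22 libraries above the diagonal, the 14 libraries numbered 5 to 11 below it. The block of host pairs at 0.52 to 0.91 (lower right corner, above the diagonal) becomes -0.19 to 0.78 below it.

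Among 8521 genes of at least 10 CPM, those most like each member over the 22 libraries are given with r in the 14 libraries after it. Malat1 was closest to Smchd1, a chromatin protein of X inactivation (0.86, then 0.76), Fbxw2 (0.82, 0.71) and Pik3ca (0.82, 0.82). Neat1 was closest to Xpot (0.80, 0.83), 1810013L24Rik (0.79, 0.80) and Gnl3l (0.78, 0.71). For Kcnq1ot1 they were Acly (0.85, 0.85), Dync1h1 (0.82, 0.81) and Ahnak (0.81, 0.88). For these 3 nuclear RNAs r in the 14 libraries was 0.71 or more. The 14 libraries are among the 22 by which the genes were picked, so a high r there is no independent check. Dleu2 was closest to 2010016I18Rik (0.93, 0.81), Zkscan8 (0.92, 0.92) and Kdm2b (0.91, 0.79). Rabggtb, itself a known snoRNA host, was among the 3 closest for Gas5 (0.89, 0.70), Snhg1 (0.96, 0.88) and Snhg5 (0.90, 0.80). Gas5 was also close to Snhg1 and to Atf4, a stress-response transcription factor (0.87, 0.75), and Snhg1 to Ggnbp2 (0.96, 0.66) and Eif4a2 (0.95, 0.85). Snhg12 was closest to 1110038B12Rik (0.91, 0.77), Acbd3 (0.89, 0.44) and Cd2 (0.88, 0.48). Snhg8 stood with ribosomal protein genes, Rpl34 (0.84, 0.26), Rpl38 (0.82, 0.34) and Rpl30 (0.79, 0.35), a likeness that was weak inside the 14 libraries.

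Of 26 tested genes other than members within 50 kb of a member, 8 rose and 2 fell (38.5%, beside 31.5% of all genes). The largest change was beside Snhg8: Ndst3, a heparan sulfate-modifying enzyme 17762 bases away, went from 2.47 to 13.99 CPM (log2 2.51 ± 0.15, adjusted p = 6.44e-13), and its calcitriol range of 8.85 to 18.3 lay above its vehicle range of 1.55 to 3.92. Beside Snhg12, Taf12, a subunit of the general transcription factor TFIID, rose from 47.6 to 73.9 CPM (0.64 ± 0.06, adjusted p = 6.45e-09) and Gmeb1 from 20.3 to 29.3 (0.53 ± 0.06, adjusted p = 1.96e-07). Both had all 11 calcitriol libraries above every vehicle library, as 2.77% of genes did. Trnau1ap, the gene nearest to Snhg12 at 739 bases, had a log2 change of 0.00 (adjusted p = 0.965).

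Slc3a2, an amino acid transporter subunit whose start lies 106 bases from that of Snhg1 on the opposite strand, rose from 257 to 323 CPM (0.33 ± 0.08, adjusted p = 0.00272), whereas Snhg1 had an estimate below 0. Stx5a (0.23 ± 0.07, adjusted p = 0.00976) and the messenger RNA export factor Nxf1 (0.30 ± 0.09, adjusted p = 0.00874) rose on its other side. Frmd8, 4224 bases from Neat1, went from 150 to 183 CPM (0.29 ± 0.07, adjusted p = 0.00127) and Slc25a45 also passed (0.25 ± 0.09, adjusted p = 0.0430), a call lost in 15 of 33 alternatives. Zbtb37, which overlaps the start of Gas5 on the other strand, measured 14.8 and 13.8 CPM (adjusted p = 0.265). Spryd7, near Dleu2, fell from 6.13 to 4.82 CPM (-0.36 ± 0.12, adjusted p = 0.0190).

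Most estimates for the proteins that package snoRNAs lay below 0, although the share called in either direction was near that of all genes. Of 20 snoRNP proteins and assembly factors, 7 fell and 0 rose (35% called, beside 31.5% of all genes in either direction and 15.5% lower). The median log2 change was -0.24 (all genes -0.01), and 19 of 20 estimates lay below 0, beside 52.2% of all genes. Nhp2, a core protein of the H/ACA particles, fell from 74.4 to 57.2 CPM (-0.37 ± 0.08, adjusted p = 0.000319), and Naf1, their assembly factor, from 4.83 to 3.09 (-0.69 ± 0.16, adjusted p = 0.00125). Ruvbl2 (-0.33 ± 0.07, adjusted p = 0.000545) and Nufip1 (-0.27 ± 0.07, adjusted p = 0.00235), which help to assemble C/D particles, fell as well, as did Rrp9, Nop56 and Shq1. These last 3 calls were lost when mutually most alike libraries were summed, where 4 remained. Among 8 tested non-coding hosts outside the 9, only Snhg17 fell (12.5% called, beside 31.5% of all genes; 49.1 to 38.7 CPM, -0.35 ± 0.12, adjusted p = 0.0325), and 6 of 8 estimates lay below 0. Its call was lost in 12 of 33 alternatives, and the count lower was 3 with library size alone, 4 with surrogate variables, 2 with limma-voom, 0 without a filter or with libraries summed, and 0 to 3 on leaving out 1 library. Epb41l4aos, Snhg6 and Snhg20 had log2 changes of -0.30, -0.23 and -0.17 (adjusted p = 0.0841, 0.0919 and 0.305), and the first of these passed in 7 alternatives and Snhg6 in 4.

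Protein-coding genes with snoRNAs in their introns went mostly the other way. Of 45, 23 rose and 5 fell (62.2% called, beside 31.5% of all genes), with a median log2 change of 0.12. Rps20, a protein of the small ribosomal subunit, rose from 1682 to 2323 CPM (0.47 ± 0.04, adjusted p = 2.41e-09) and Tpt1 rose by 0.50 ± 0.06 (adjusted p = 6.43e-07), while the mitochondrial chaperone Hspa9 (-0.43 ± 0.06, adjusted p = 3.95e-06) and the ATP synthase subunit Atp5b (-0.27 ± 0.04, adjusted p = 1.91e-05) fell. Most of the risers were ribosomal protein genes with small changes, and scaling by library size alone gave 12 higher and 9 lower. With mutually most alike libraries summed, 11 higher and 3 lower remained.

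Partners of Neat1 and Malat1 changed in a few members of each list. Of 22 paraspeckle proteins 1 rose and 1 fell (9.09% called, beside 31.5% of all genes). Nono, a core paraspeckle protein, ranged from 474 to 546 CPM in vehicle and from 706 to 812 in calcitriol with no overlap (0.54 ± 0.04, adjusted p = 1.11e-11). Its relative Pspc1 fell (-0.18 ± 0.05, adjusted p = 0.00669). Hnrnpf and Hnrnph3 had log2 changes of 0.11 and -0.14 (adjusted p = 0.0732 and 0.102). With library size alone 5 of the list fell, and with surrogate variables 4 did. Of 23 nuclear speckle and SR proteins 4 rose and 0 fell (17.4%, beside 31.5% of all genes). Srpk1, a kinase of SR splicing factors, ranged from 275 to 342 CPM in vehicle and from 385 to 525 in calcitriol (0.58 ± 0.05, adjusted p = 4.76e-10), its relative Srpk2 rose by 0.25 ± 0.08 (adjusted p = 0.0121), Srsf1 by 0.22 ± 0.08 (adjusted p = 0.0271) and the speckle scaffold Son by 0.15 ± 0.04 (adjusted p = 0.00790). Of these, only Srpk1 still passed when scaled by library size alone, where 2 others of the list fell.

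Of 17 nonsense-mediated decay factors 4 fell and 0 rose (23.5%, beside 31.5% of all genes). They were the endonuclease Smg6 (-0.33 ± 0.06, adjusted p = 0.000116), Casc3 (-0.23 ± 0.06, adjusted p = 0.00185), Smg8 (-0.17 ± 0.06, adjusted p = 0.0242) and Rbm8a (-0.16 ± 0.06, adjusted p = 0.0428, lost in 12 of 33 alternatives). Other long non-coding RNAs moved both ways, 5 up and 2 down of 18 tested (38.9%, beside 31.5% of all genes). Rn7sk, the nuclear RNA that holds the elongation factor P-TEFb inactive, rose from 17240 ± 1155 to 20820 ± 1295 CPM (0.27 ± 0.04, adjusted p = 7.39e-06), and Lncpint (0.70 ± 0.14, adjusted p = 0.000190) and Airn (0.66 ± 0.18, adjusted p = 0.00560) rose from low levels. Mir155hg, the host of miR-155, fell from 52.3 to 33.02 CPM (-0.66 ± 0.11, adjusted p = 3.18e-05). Of the neighbours and listed genes named above as changed with their values, Nap1l4, Nxf1, Stx5a, Spryd7, Pspc1, Son, Srpk2, Srsf1 and Smg8 kept their direction but lost their calls when mutually most alike libraries were summed (adjusted p between 0.0561 and 0.170), besides Slc25a45, Snhg17 and Rbm8a.

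**Figure D5:**
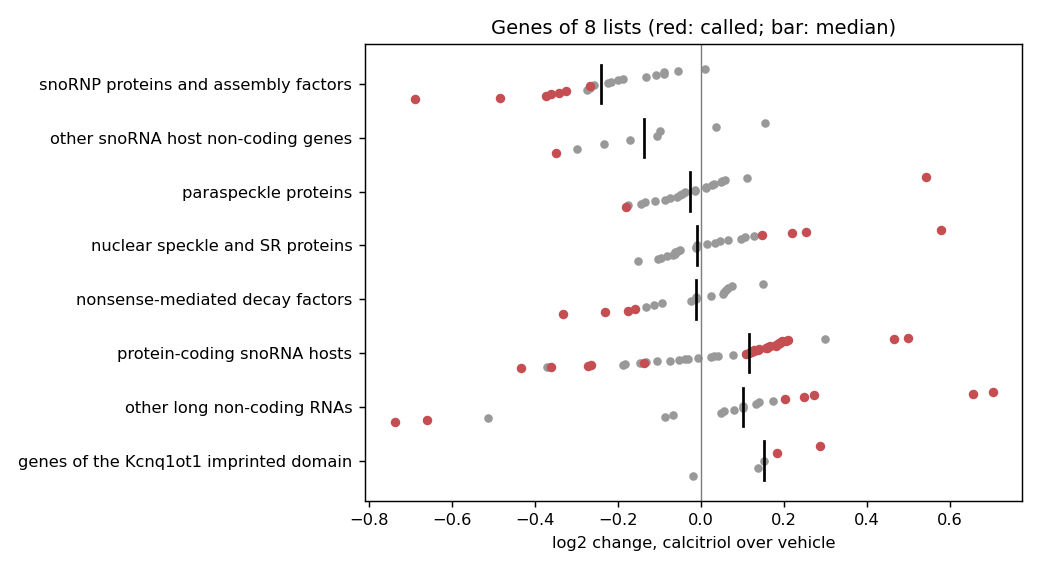
Log2 change, calcitriol over vehicle, of every tested gene in 8 lists; red points passed the threshold, grey points did not, and the bar is the list's median. The snoRNP list lies almost wholly below 0, with a median of -0.24, and the protein-coding snoRNA hosts have a median of 0.12.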

How the data were processed

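The authors deposited raw read counts per Ensembl gene for 22 libraries made with a stranded total RNA kit with globin depletion, per the labels' protocols. The tools and build named there, per the submitters' processing notes, are STAR (2.7.10a), HTSeq (0.13.5) and GRCm38. How strand was handled is not given in the sources used here, nor is the annotation release. All 22 columns matched a sample by name. Symbols and coordinates came from GENCODE M21 (259 identifiers had no entry), sequences from RefSeq tables (GRCm38.p6), which held promoters of 8 of 9 members.

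Genes were filtered with filterByExpr (99.7% of counts kept), scaled with TMM factors and tested with edgeR 4.0.16 (R 4.3.3; quasi-likelihood F test, robust, no covariate, Benjamini-Hochberg adjustment, threshold 0.05). Every adjusted p of a gene comes from that fit unless another setting is named. Of 11905 genes, 1911 were higher and 1844 lower. TMM factors averaged 1.02 in vehicle and 0.976 in calcitriol (permutation test, 100000 resamples, two-sided, adjusted p = 0.000187 over the library measures). Library measures were tested in that way. The script was tested on simulated data. Members had at least 34 counts in every library, and the part of counting error in their spread was not tested.

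Members, gene lists and tests were chosen with earlier results of these data known. Genes were named by rule: all members; up to 4 per list and up to 3 called neighbours per member by smallest p; genes inside a member with at least 10 counts; the 3 genes most like each member; and Cyp24a1. Of the genes this rule names, 1 is not reported here. Some genes were named after their values had been seen. They were Rrp9, Nop56, Shq1, Trnau1ap, Snora73b and the untested genes of the imprinted domain. The markers Cd3d, Cd3e, Cd4, Il13, Il1rl1, Gzma, Tbx21, Zbtb46, Hba-a1 and Alas2 were named in the same way. Alternatives used DESeq2 1.42.0, limma 3.58.1 (voom), sva 3.50.0, other scaling and filters, and left out libraries.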

Additional observations from a re-analysis of the deposited data

How the results depend on the processing

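Malat1 kept its direction and passed the threshold in all 33 alternatives (log2 0.34 to 0.43), 22 of which left out 1 library (0.39 to 0.43). The count of members called was 4 with library size alone, 6 with 5 surrogate variables, and 1 without a filter, without the 4 libraries apart (numbers 1 and 2 of each group) and with mutually most alike libraries summed to 6 samples per group. Leaving out 1 library gave 1 to 2, with 1 without vehicle 2, vehicle 4, calcitriol 8 or calcitriol 10. Calls over all genes were 3755, and 2357 with summed libraries (1242 higher, 1115 lower). Lower calls were 1844, but 2878 with library size alone, where the higher share of calls fell from 50.9% to 31.4%, and 2787 with surrogate variables. List calls were 54, but 85 with surrogate variables and 27 with summed libraries. The cause of these shifts was not tested.

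Snhg5 lost its call without a filter (-0.35, adjusted p = 0.0722), without the 4 libraries apart (-0.31, 0.0955), with summed libraries (-0.33, 0.171) and in libraries 5 to 11 (-0.24, 0.0720); leaving out 1 library gave -0.40 to -0.30. Kcnq1ot1 turned below 0 with library size alone (-0.0466), without the 4 libraries apart (-0.0143) and in libraries 5 to 11 (-0.0130); leaving out 1 library gave -0.0465 to 0.0792. Calls were gained by Gas5 with library size alone (-0.21, 0.0375) and surrogate variables (-0.13, 0.0207); by Snhg1 with surrogate variables (-0.16, 0.00887), in libraries 5 to 11 (-0.17, 0.0491) and with the set as covariate (-0.16, 0.0280); by Snhg8 with surrogate variables (0.16, 0.0169) and the covariate (0.19, 0.0414), with 0.13 to 0.24 on leaving out 1 library; and by Snhg12 with library size alone (-0.39, 0.0443), surrogate variables (-0.35, 0.0293), libraries 5 to 11 (-0.33, 0.0153) and the covariate (-0.31, 0.00652). The fits on library sets were added after seeing the data, and Snhg1 itself separates the sets. No paired analysis was run because the labels give no replicate numbers and accession order alone names no pairs. In each group the mutually most alike libraries were numbers 1 and 2, 3 and 4, 5 and 6, 7 and 8, and 10 and 11. These are neighbours in library number, and number 9 stood alone. The 11 libraries of a group may therefore not be independent, and what the alike libraries share was not tested.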
